A study of Mus musculus with 8 samples.

Results

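Transcripts of 10 prostaglandin synthesis and receptor genes were followed across the ventral prostates of human SKP2 knock-in (hSKP2-KI) and wild-type (WT) mice. The genes were taken by symbol from the deposited expression table, which lists 36333 genes: the synthesis enzymes Ptgs1, Ptgs2, Ptges, Ptgds and Hpgds, the receptors Ptgdr, Ptger2, Ptger3 and Ptger4, and the inactivating enzyme Hpgd. All 10 were found, and 8 of them passed a filter on low values (TPM of 1 or more in 4 or more samples) that left 13080 genes in all. They were chosen by the difference in their TPM between genotypes in these same libraries, so those differences are given as a description, with standard errors and intervals but without p-values. RNA came from whole ventral lobes of 4 hSKP2-KI and 4 WT males, all FVB/N and 12 months old, with 1 library per mouse. In hSKP2-KI mice a P2A-linked human SKP2 coding sequence sits in exon 1 of the endogenous probasin gene, placed there by CRISPR/Cas9, so its expression follows the probasin promoter and is aimed at prostate secretory epithelium. Males were obtained by crossing heterozygous hSKP2-KI females with WT FVB/N males, WT mice lack the insert, and the sources used here do not say how many knock-in founders the sequenced mice derive from.

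Prostaglandins are short-lived lipid signals made from arachidonic acid. The cyclooxygenases encoded by Ptgs1 and Ptgs2 make the common precursor prostaglandin H2, and terminal synthases turn it into prostaglandin E2 (Ptges) or prostaglandin D2 (Ptgds, the lipocalin type, and Hpgds, the haematopoietic type). Prostaglandin E2 signals through the receptors EP2, EP3 and EP4 (Ptger2, Ptger3 and Ptger4) and prostaglandin D2 through DP1 (Ptgdr), all of them G protein-coupled, with EP2, EP4 and DP1 raising cyclic AMP and EP3 mainly lowering it. The dehydrogenase encoded by Hpgd starts the breakdown of prostaglandins, and in the prostate gland these enzymes and receptors are spread over epithelium, stroma and leukocytes.

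Values are TPM, in which read numbers are corrected for gene length and then for the total of the library, so levels may be compared between genes, but read numbers are not in the table. Mouse Skp2, to which reads of the human insert may have been assigned, ranged from 37.3 to 60.6 TPM in hSKP2-KI and from 1.05 to 2.27 TPM in WT prostates. Pbsn, the probasin gene that received the insert, ranged from 93.0 to 174 TPM in hSKP2-KI against 3980 to 9230 TPM in WT prostates. The ventral prostate secretory genes Sbp, Spink1 and Sbpl took 32.1 to 34.3% of all TPM in hSKP2-KI and 40.4 to 45.8% in WT samples. The median tested gene was 0.23 higher in hSKP2-KI on the log2(TPM + 1) scale. TPM are shares of a fixed total, so a smaller share of abundant genes raises the others, but its part in this shift was not tested. Differences are therefore also given after median-ratio scaling, which divides each sample by its median ratio to the mean sample on a log scale and brings the median gene to -0.01.

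Ptgdr and Ptger2 lie on chromosome 14, 128735 bases apart. Ptgdr spans chr14:44851235-44859375 on the minus strand with 2 exons, and Ptger2 spans chr14:44988111-45003820 on the plus strand, also with 2 exons (gene positions from RefSeq, exons from GENCODE M21, both on GRCm38). Ptges (chr2:30889471-30931020, minus strand, 3 exons) and Hpgd (chr8:56294552-56321046, plus strand, 7 exons) were the most abundant synthase and the inactivating enzyme. Their promoters are shown to compare the start sites of the receptor that differed most, its neighbour and the most abundant transcripts. Each is the RefSeq window on GRCm38.p6 from 250 bases before to 50 bases after the start, 5′ to 3′ on the strand of the gene, and capitals mark matches to the motifs searched on both strands.
Ptgdr, chr14:44859326-44859625, minus strand: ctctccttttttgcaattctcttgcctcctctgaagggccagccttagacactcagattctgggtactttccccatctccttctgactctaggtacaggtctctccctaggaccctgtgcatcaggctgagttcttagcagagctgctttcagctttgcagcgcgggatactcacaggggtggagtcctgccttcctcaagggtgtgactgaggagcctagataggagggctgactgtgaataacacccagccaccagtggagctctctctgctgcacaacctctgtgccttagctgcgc
Ptger2, chr14:44987861-44988160, plus strand: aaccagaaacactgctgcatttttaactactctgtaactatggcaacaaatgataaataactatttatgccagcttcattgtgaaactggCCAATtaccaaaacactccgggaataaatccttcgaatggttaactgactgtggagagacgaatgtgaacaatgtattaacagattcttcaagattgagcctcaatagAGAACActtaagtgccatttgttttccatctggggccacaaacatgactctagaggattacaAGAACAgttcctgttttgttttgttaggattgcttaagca
Ptges, chr2:30903248-30903547, minus strand: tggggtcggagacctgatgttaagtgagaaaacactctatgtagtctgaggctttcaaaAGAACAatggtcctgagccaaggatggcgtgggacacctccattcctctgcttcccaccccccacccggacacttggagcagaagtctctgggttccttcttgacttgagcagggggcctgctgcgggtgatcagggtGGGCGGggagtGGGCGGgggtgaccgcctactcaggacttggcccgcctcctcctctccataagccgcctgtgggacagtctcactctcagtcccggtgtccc
Hpgd, chr8:56294302-56294601, plus strand: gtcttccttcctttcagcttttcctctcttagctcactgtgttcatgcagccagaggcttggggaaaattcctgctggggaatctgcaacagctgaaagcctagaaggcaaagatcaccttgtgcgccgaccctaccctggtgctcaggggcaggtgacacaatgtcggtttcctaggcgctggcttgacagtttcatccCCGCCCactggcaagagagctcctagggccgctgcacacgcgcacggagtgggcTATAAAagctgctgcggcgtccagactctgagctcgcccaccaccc
The Ptgdr window held none of the motifs, and its GC content was 54.7%. The AT-rich Ptger2 window (37.7% GC) held 1 CCAAT box (CCAAT) and 2 matches to AGAACA, the core hexamer of androgen receptor elements. In the Ptges window (60.0% GC), 2 GC boxes (GGGCGG) and 1 AGAACA were found. The Hpgd window (58.0% GC) held 1 TATA box (TATAAA) and 1 GC box on the opposite strand, printed as CCGCCC. This TATAAA starts at base 5 counted from the RefSeq start, and the GENCODE M21 transcript begins 33 bases downstream of that start. For Ptger2 the GENCODE M21 transcript used begins at chr14:44988195, past the end of the printed window, so both AGAACA matches lie before it. The Ptges window belongs to a start inside the gene span, which also overlaps Gm52550 and Gm13400. All 10 genes had a window in the table. Among them AGAACA was found in 3 (Ptgs1, Ptges and Ptger2), against 19.0% of all 32851 windows, GGGCGG in 5 against 35.7%, CCAAT in 2 against 37.4% and TATAAA in 1 against 13.6%. Of the motifs tied to cyclic AMP, the full TGACGTCA was found in 0 of the 10 windows (1.79% of all) and its part TGACG, which lies inside it, in 1, Ptgs2 (20.8% of all). TGANTCA, the AP-1 motif, was found in 1 (Ptgds; 7.81% of all) and CACGTG, the E-box, in 1 (Ptgs2; 7.15% of all), where it overlaps TGACG read on the other strand. A match is a run of letters and not a shown binding site, and the absence of one says nothing about a factor.

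The levels covered a wide range, from above 100 TPM to below 1 TPM. In hSKP2-KI prostates the order of mean TPM was Ptges, Hpgd, Ptgdr, Ptgs1, Ptger3, Ptger4, Hpgds, Ptgs2, Ptgds and Ptger2, and the 4 values of neighbouring genes overlapped except between Hpgd and Ptgdr. In WT prostates the order was Ptges, Hpgd, Ptgs1, Ptger3, Ptger4, Ptgdr, Ptgds, Ptgs2, Hpgds and Ptger2, with gaps between Hpgd and Ptgs1 and between Hpgds and Ptger2 alone. Ptgdr thus stood at rank 3 in hSKP2-KI and rank 6 in WT prostates. Ptges and Hpgd together made up 80.7 to 89.4% of the summed TPM of the 10 genes in hSKP2-KI and 90.5 to 93.1% in WT samples.

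**Figure D1:**
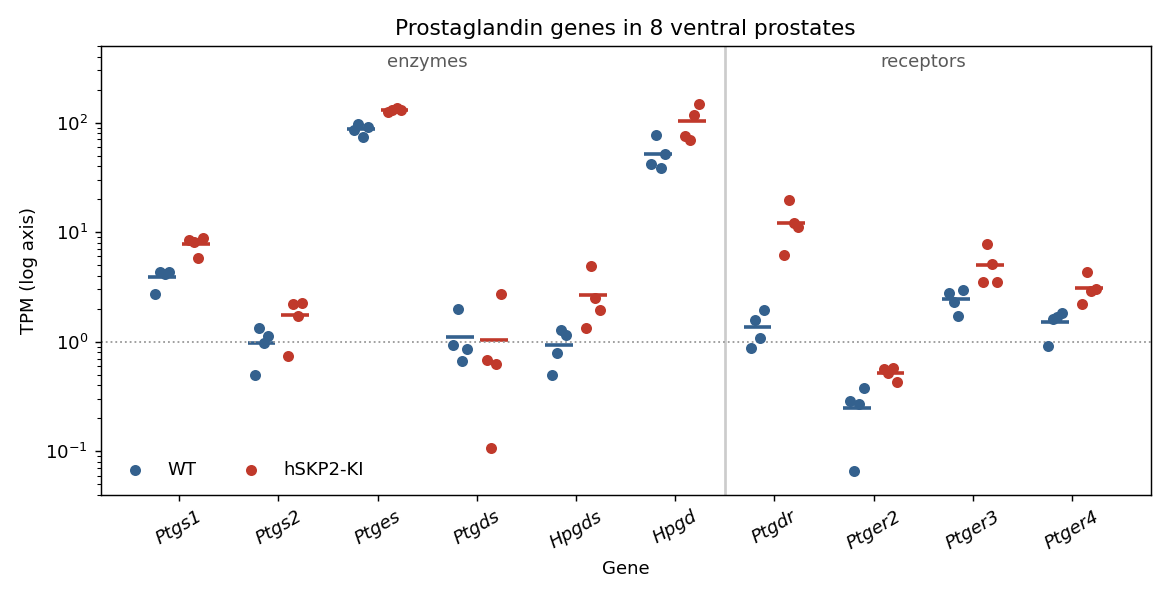
TPM of the 10 genes (log axis) in each of the 4 hSKP2-KI and 4 WT samples, with a point per mouse and a bar at the mean of each genotype. Ptgdr ranges from 6.13 to 19.5 TPM in hSKP2-KI and from 0.874 to 1.95 TPM in WT mice, while the genotypes overlap for Ptgs2, Ptgds and Hpgd.

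Of the enzymes that make prostaglandin H2, Ptgs1 (Entrez 19224; chr2:36216742-36258593, plus strand, 11 exons) was the more abundant, at 8.39, 8.11, 5.84 and 8.80 TPM in hSKP2-KI replicates 1 to 4 and 2.73, 4.29, 4.18 and 4.28 TPM in WT replicates 1 to 4. Every hSKP2-KI mouse lay above every WT mouse, and WT replicate 1 was the lowest. The mean TPM was 7.78 ± 1.32 (SD, n = 4) against 3.87 ± 0.76 (SD, n = 4), and the log2 difference was 0.85 (standard error 0.15, 95% interval 0.51 to 1.19), or 0.63 after median-ratio scaling (0.33 to 0.93). Ptgs2 (Entrez 19225; chr1:150100031-150108234, plus strand, 10 exons), the inducible cyclooxygenase, was low, at 0.74, 2.23, 1.72 and 2.25 TPM in hSKP2-KI and 0.492, 1.33, 0.963 and 1.12 TPM in WT replicates 1 to 4. Here 3 of 4 hSKP2-KI mice exceeded the highest WT mouse, replicate 1 did not, and the interval of the log2 difference (0.44, -0.03 to 0.92) included no difference. Within a sample, Ptgs1 was 3.4 to 11.3 times as abundant as Ptgs2 in hSKP2-KI and 3.23 to 5.55 times in WT prostates.

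Ptges (Entrez 64292), the inducible microsomal prostaglandin E synthase, was the most abundant of the 10 transcripts in both genotypes. It measured 124, 129, 135 and 129 TPM in hSKP2-KI and 85.9, 96.3, 74.3 and 91.0 TPM in WT replicates 1 to 4. The genotypes did not overlap, and the hSKP2-KI mice lay close together, with a coefficient of variation of 3.3% against 10.8% in WT mice. The mean was 129 ± 4.26 TPM (SD, n = 4) against 86.9 ± 9.39 TPM (SD, n = 4), a ratio of 1.49. Its log2 difference of 0.57 (standard error 0.09, interval 0.39 to 0.76) became 0.31 (0.14 to 0.48) after median-ratio scaling, a ratio of 1.24, still without overlap. Relative to the summed TPM of Ptgs1 and Ptgs2, Ptges was 11.7 to 17.8 times as abundant in hSKP2-KI and 14.5 to 26.7 times in WT prostates, so that these ranges overlapped.

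The prostaglandin D synthases were both scarce. Hpgds (Entrez 54486; chr6:65117293-65144981, minus strand, 6 exons), a cytosolic enzyme known from mast cells, macrophages and other leukocytes, measured 1.32, 4.86, 2.48 and 1.93 TPM in hSKP2-KI and 0.494, 0.786, 1.29 and 1.15 TPM in WT replicates 1 to 4. All hSKP2-KI mice were above all WT mice, but replicate 1 only just, and after median-ratio scaling 3 of 4 were. The mean was 2.65 ± 1.55 TPM (SD, n = 4) against 0.932 ± 0.362 TPM (SD, n = 4), and the log2 difference of 0.85 (standard error 0.26, interval 0.28 to 1.41) became 0.59 without hSKP2-KI replicate 2, the highest mouse. Ptgds (Entrez 19215; chr2:25466709-25470110, minus strand, 7 exons), the lipocalin-type synthase, measured 0.687, 0.107, 0.627 and 2.70 TPM in hSKP2-KI and 0.929, 2.00, 0.662 and 0.854 TPM in WT replicates 1 to 4. Only hSKP2-KI replicate 4 exceeded the WT mice, 1 mouse of 4, and Ptgds did not pass the filter. Its mean of 1.03 ± 1.14 TPM in hSKP2-KI and 1.11 ± 0.604 TPM in WT prostates (SD, n = 4 each) differed by less than the spread between mice. The ratio of Hpgds to Ptgds was 0.714 to 45.4 in single hSKP2-KI samples, the highest where Ptgds was at 0.107 TPM, and 0.393 to 1.96 in WT samples.

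Among the receptors, Ptgdr (Entrez 19214), the prostaglandin D2 receptor DP1, showed the largest log2 difference of the 10 genes. It measured 6.13, 19.5, 12.0 and 11.2 TPM in hSKP2-KI replicates 1 to 4 and 0.874, 1.57, 1.08 and 1.95 TPM in WT replicates 1 to 4. The lowest hSKP2-KI mouse was well above the highest WT mouse, and replicate 2 was the highest of all. The mean was 12.2 ± 5.51 TPM (SD, n = 4) against 1.37 ± 0.485 TPM (SD, n = 4), a ratio of means of 8.93. The log2 difference was 2.41 (standard error 0.27, interval 1.81 to 3.00) as deposited, 2.21 (1.62 to 2.80) after median-ratio scaling and 2.16 without hSKP2-KI replicate 2. By log2 difference Ptgdr had rank 12 from the highest among the 13080 tested genes, on both scales. In bulk tissue, more cells of a type that carries a transcript and more of it per cell cannot be told apart, for Ptgdr as for the other genes.

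The prostaglandin E2 receptors differed less between genotypes on the log2(TPM + 1) scale. Ptger3 (Entrez 19218; chr3:157566821-157644758, plus strand, 3 exons), which encodes EP3, measured 3.51, 7.76, 5.11 and 3.47 TPM in hSKP2-KI and 2.78, 2.29, 1.73 and 2.96 TPM in WT replicates 1 to 4. The genotypes did not overlap as deposited, while after median-ratio scaling 2 of 4 hSKP2-KI mice stayed above the WT mice. Its log2 difference was 0.75 (standard error 0.21, interval 0.28 to 1.22), or 0.54 (0.06 to 1.03) after that scaling. Ptger4 (Entrez 19219; chr15:5233399-5244187, minus strand, 3 exons), which encodes EP4, measured 2.22, 4.30, 2.89 and 3.04 TPM in hSKP2-KI and 0.913, 1.61, 1.68 and 1.84 TPM in WT replicates 1 to 4. No hSKP2-KI mouse fell within the WT range on either scale, and the log2 difference was 0.70 (standard error 0.18, interval 0.31 to 1.09), or 0.53 (0.17 to 0.89) after median-ratio scaling. Ptger2 (Entrez 19217), which encodes EP2, measured 0.56, 0.518, 0.571 and 0.431 TPM in hSKP2-KI and 0.286, 0.0659, 0.27 and 0.375 TPM in WT replicates 1 to 4. It reached 1 TPM in 0 of 8 samples and was not tested, and its genotypes, apart as deposited, overlapped after median-ratio scaling.

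The balance between receptors within a sample is unchanged by scaling with 1 factor per sample, such as median-ratio scaling, but can change under quantile normalization. Ptgdr made up 49.3, 60.8, 58.4 and 61.8% of the summed TPM of the 4 receptors in hSKP2-KI replicates 1 to 4, and 18.0, 28.3, 22.7 and 27.3% in WT replicates 1 to 4. Ptgdr was thus the largest receptor share in each hSKP2-KI mouse, a mean of 57.6 ± 5.69% (SD, n = 4) against 24.1 ± 4.75% (SD, n = 4) in WT mice. Relative to Ptger4, it was 2.75 to 4.53 times as abundant in hSKP2-KI samples and 0.642 to 1.06 times in WT samples. These shares use the same Ptgdr values by which the genes were picked and are a description.

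**Figure D2:**
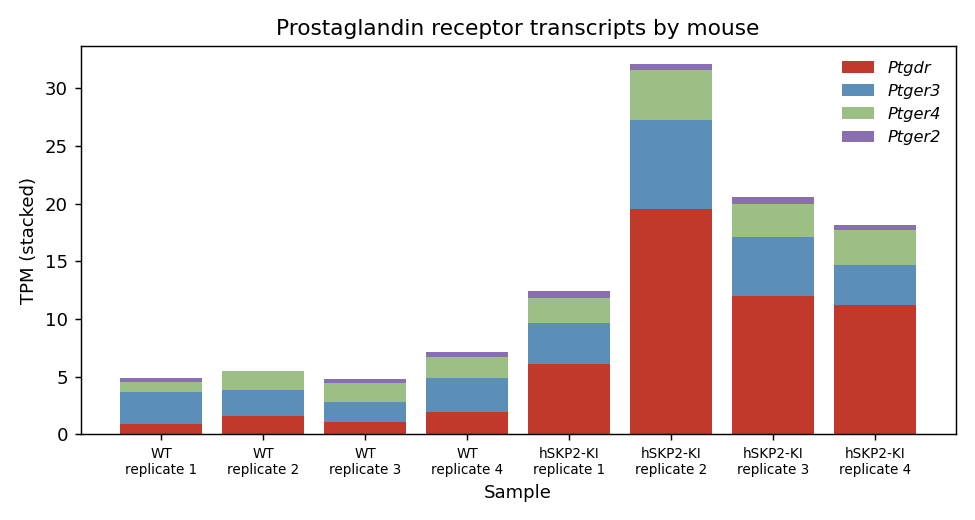
Stacked TPM of Ptgdr, Ptger2, Ptger3 and Ptger4 (y axis) in each WT and hSKP2-KI sample (x axis). The 4 receptors sum to 4.76 to 7.13 TPM in WT and 12.4 to 32.1 TPM in hSKP2-KI mice, and Ptgdr is the largest segment in every hSKP2-KI bar.

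Hpgd (Entrez 15446), the 15-hydroxyprostaglandin dehydrogenase, measured 74.6, 68.9, 118 and 149 TPM in hSKP2-KI and 41.9, 76.3, 38.3 and 51.7 TPM in WT replicates 1 to 4. The hSKP2-KI replicates 3 and 4 were above all WT mice, whereas replicates 1 and 2 were below WT replicate 2. The mean was 103 ± 37.8 TPM against 52.1 ± 17.1 TPM (SD, n = 4 each), with a log2 difference of 0.95 (standard error 0.26, interval 0.37 to 1.52), or 0.68 (0.13 to 1.23) after median-ratio scaling. Within samples, the ratio of Ptges to Hpgd was 1.39 ± 0.464 in hSKP2-KI and 1.75 ± 0.348 in WT prostates (SD, n = 4 each), and its ranges of 0.867 to 1.87 and 1.26 to 2.05 overlapped.

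Over all 10 genes the mean TPM was higher in hSKP2-KI for 9 and lower for Ptgds. With limma and Benjamini-Hochberg adjustment over all tested genes, 32.7% of them were called higher and 1.23% lower in hSKP2-KI prostates. By that rule 7 of the 8 tested prostaglandin genes (all but Ptgs2) were called, all higher, which is not read as support because the genes were picked with these values known. Ptgdr, Ptger4, Hpgds and Ptgs2, 4 of the 8, needed hSKP2-KI samples to pass the filter. After median-ratio scaling the calls were 3 (Ptgs1, Ptges and Ptgdr), where 6.92% of all tested genes were called higher. With a mouse also left out, Ptges kept this call only without WT replicate 1, and Ptgs1 lost it only without hSKP2-KI replicate 4. With all mice, Ptgs1, Ptges and Ptgdr were also the 3 called under quantile normalization (5.42% of all) and without the 20 most abundant genes (6.79%). Without the filter, 5 of the 10 genes were called (13.7% of all genes higher), and with a filter on a mean TPM of 5 it was 4 of 4 (34.6%). The median log2 difference of the 8 was 0.80 beside 0.23 for all tested genes, and 0.59 beside -0.01 after median-ratio scaling. All hSKP2-KI values exceeded all WT values for 7 of the 10 genes (6 of the 8 tested), beside 34.0% of all tested genes, and for 4 of the 10 (4 of the 8 tested) beside 10.3% after median-ratio scaling.

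**Figure D3:**
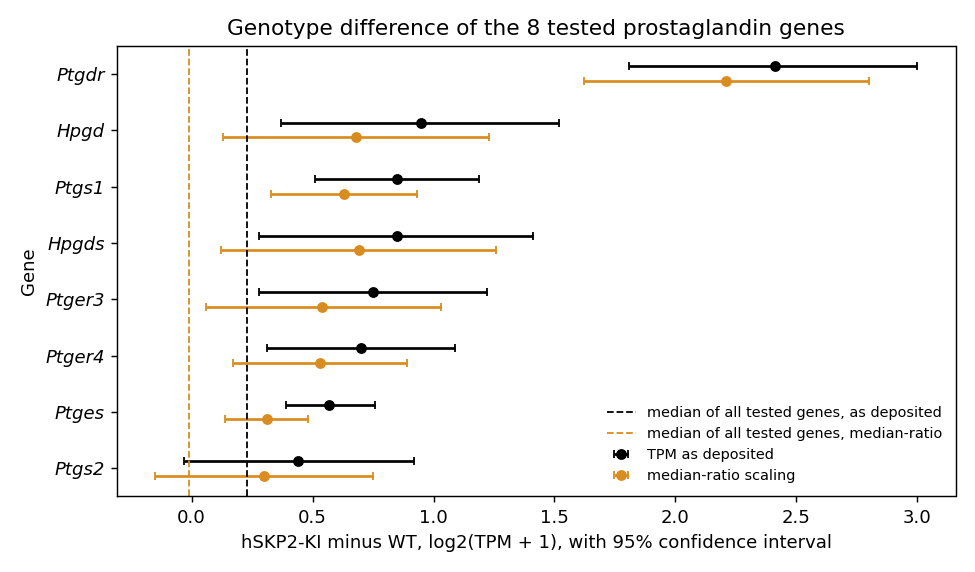
Difference between hSKP2-KI and WT means on the log2(TPM + 1) scale for the 8 tested genes, as deposited and after median-ratio scaling, with bars for the 95% interval and dashed lines at the median of all tested genes. Ptgdr is at 2.41 and 2.21, and Ptges moves from 0.57 to 0.31 when the samples are rescaled.

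The genes did not share the same highest mouse. Among hSKP2-KI mice, replicate 2 was highest for Hpgds, Ptgdr, Ptger3 and Ptger4, replicate 4 for Ptgs1, Ptgs2, Ptgds and Hpgd, and replicate 3 for Ptges and Ptger2. Among WT mice, replicate 4 was highest for the 4 receptors and replicate 2 for 5 of the enzymes (Ptgs1, Ptgs2, Ptges, Ptgds and Hpgd). Replicate 2 was also the hSKP2-KI mouse with the highest summed TPM for 10 of the 14 marker lists examined. Among those 10, the neutrophil, type 2 lymphoid and seminal vesicle lists were low and held no tested gene, and the leukocyte list is Ptprc alone. Without hSKP2-KI replicate 2, the log2 differences were 0.59 for Hpgds, 0.55 for Ptger3, 0.57 for Ptger4 and 2.16 for Ptgdr.

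**Figure D4:**
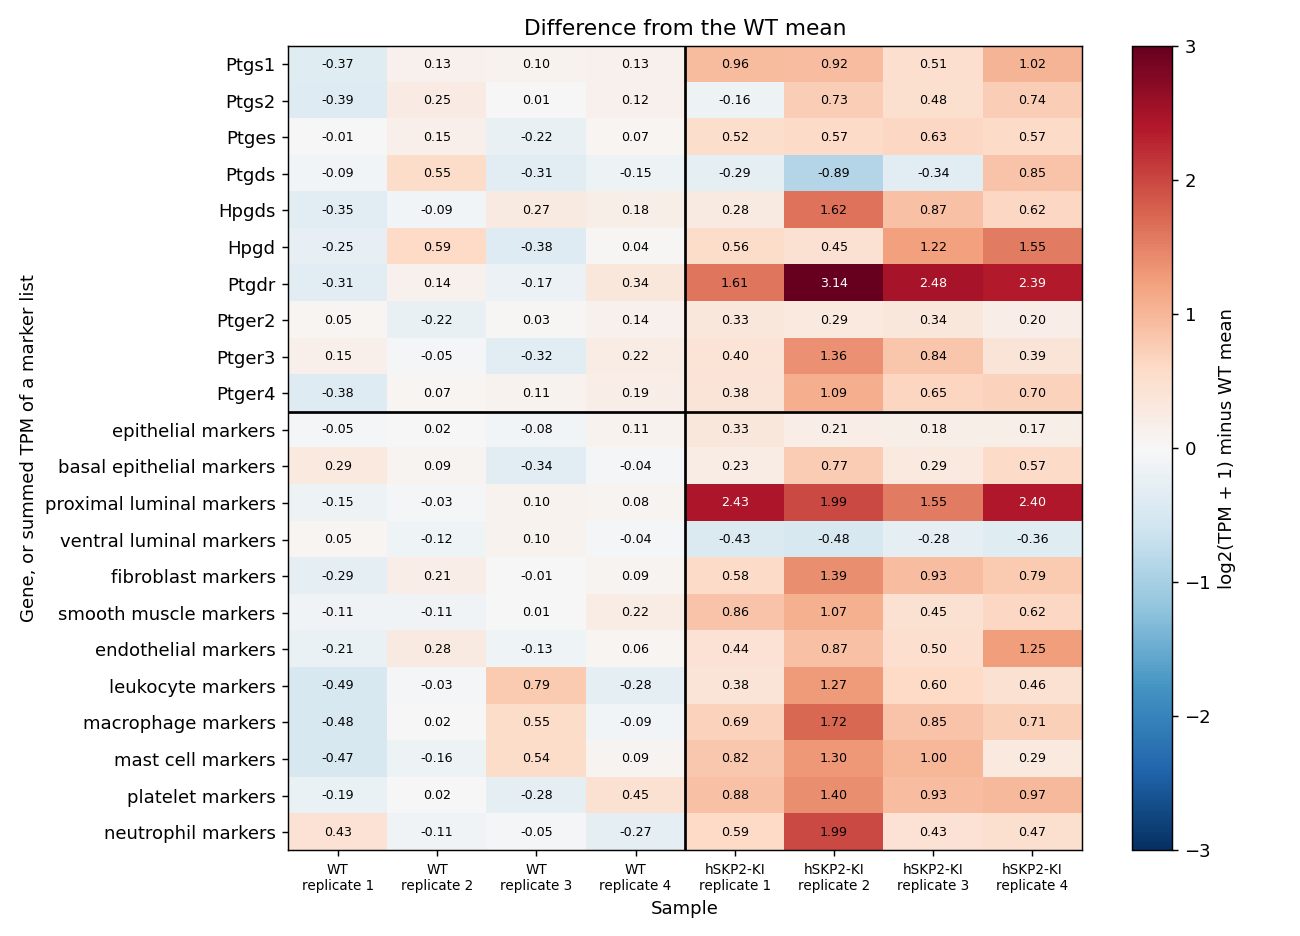
Difference of each sample from the WT mean (colour and number, log2(TPM + 1) scale) for the 10 genes and for the summed TPM of 12 marker lists, by mouse. In hSKP2-KI replicate 2, Ptgdr is 3.14 and Hpgds 1.62 above the WT mean, as macrophage markers are 1.72 and fibroblast markers 1.39 above it, while Ptgds is at -0.89.

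Markers of cell types that could carry these transcripts were also set side by side between genotypes. Their counts of calls stand beside 32.7% of all tested genes called higher as deposited and 6.92% after median-ratio scaling. Summed fibroblast markers ranged from 814 to 1430 TPM in hSKP2-KI and 448 to 630 TPM in WT prostates (7 of 7 called higher, 3 after median-ratio scaling), and smooth muscle markers from 3010 to 4620 TPM and 2030 to 2560 TPM (6 of 6, then 3). Proximal luminal epithelial markers ranged from 338 to 625 TPM against 103 to 123 TPM (4 of 4 on both scales), basal markers from 292 to 424 TPM against 196 to 305 TPM (2 of 4, then 0), and general epithelial markers from 1710 to 1910 TPM against 1440 to 1640 TPM (2 of 5, then 0). The ventral luminal list ranged from 253000 to 290000 TPM in hSKP2-KI and 326000 to 378000 TPM in WT samples, so the labelled tissue carried its defining markers, and those of the seminal vesicle stayed below 1 TPM in all samples, with Svs2 and Pate4 at 0.

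Macrophage markers summed to 213 to 435 TPM in hSKP2-KI and 93.8 to 194 TPM in WT prostates (6 of 7 tested called higher, 0 after median-ratio scaling), mast cell markers to 15.6 to 32.5 TPM and 8.81 to 18.7 TPM (4 of 5 tested, then 0). Counts of calls here too stand beside 32.7% of all tested genes called higher, and 6.92% after median-ratio scaling. The pan-leukocyte marker Ptprc ranged from 3.72 to 7.76 TPM against 1.59 to 5.29 TPM and was not called. Of the 5 platelet markers, Pf4 had 27.1 ± 4.48 TPM against 11.8 ± 3.28 TPM and made up most of the sum, while the other 4 were too low for the test and Itga2b had 0.871 ± 0.0609 TPM against 1.09 ± 0.366 TPM. Endothelial markers summed to 32.0 to 56.7 TPM against 20 to 28.5 TPM (4 of 5, then 1), and neutrophil markers to 1.23 to 5.58 TPM against 0.37 to 1.23 TPM with 0 genes tested. Type 2 lymphoid genes, among them the prostaglandin D2-responsive cytokine genes Il4 and Il13 at 0, stayed below 1 TPM in every sample.

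Ratios within a sample set the prostaglandin genes beside these markers. Ptgdr relative to Ptprc was 1.65 to 2.81 in hSKP2-KI and 0.204 to 0.976 in WT samples, and relative to the epithelial gene Epcam 0.014 to 0.0538 and 0.00355 to 0.00548, without overlap in either case. Relative to the summed proximal luminal markers it was 0.00981, 0.0424, 0.0356 and 0.0184 in hSKP2-KI replicates 1 to 4 and 0.00848, 0.0139, 0.00875 and 0.0161 in WT replicates 1 to 4. Here the genotypes overlapped, with hSKP2-KI replicate 1 inside the WT range and the other 3 mice above it. Its ratios to basal, macrophage, fibroblast and smooth muscle markers did not overlap between genotypes. All the Ptgdr ratios use the values by which the genes were picked, so a lack of overlap is a description and not support. Hpgds relative to the summed macrophage markers was 0.00619 to 0.0112 in hSKP2-KI and 0.00527 to 0.00933 in WT samples, and these ranges overlapped. Ptgs1 relative to Ptprc (1.04 to 2.26 against 0.789 to 2.14) and Ptger3 relative to smooth muscle markers (0.000879 to 0.0017 against 0.000784 to 0.00137) overlapped as well. Relative to fibroblast markers, Ptger3 was 0.00367 to 0.00544 in hSKP2-KI and 0.0032 to 0.00622 in WT samples. What cell composition adds to the differences of the 10 genes was not tested.

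The rest of the pathway was read from a list of 47 genes, of which 44 were in the table and 29 were tested. Of these, 16 rose and 0 fell in hSKP2-KI prostates (limma, Benjamini-Hochberg adjusted p under 0.05), a share of 55.2% beside 32.7% of all tested genes called higher. The median log2 difference of the 29 was 0.32, beside 0.23 for all tested genes. After median-ratio scaling 4 of the 29 were called, Akr1b8, Alox12, Alox12e and Ltc4s, and the median was 0.07. The number of calls fell to 9 without hSKP2-KI replicate 2 or 4, to 8 without WT replicate 1 and to 10 without WT replicate 3.

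Upstream, phospholipases A2 release arachidonic acid from membranes, and 3 of 6 tested rose, beside 32.7% of all tested genes (0 of 6 after median-ratio scaling, beside 6.92%). The cytosolic Pla2g4f had 13.5 ± 0.606 TPM in hSKP2-KI and 6.87 ± 4.69 TPM in WT prostates (SD, n = 4 each), with WT values of 8.48, 12.6, 4.68 and 1.77 TPM. The WT mice differed widely and the hSKP2-KI mice little, and the log2 difference of 1.11 (limma adjusted p = 0.0426) lost its call without any 1 mouse except WT replicate 2, and was 0.69 without WT replicate 4. Pla2g6 (11.9 ± 0.86 against 9.38 ± 1.06 TPM, adjusted p = 0.0369) and Pla2g4a (13.8 ± 1.69 against 10.9 ± 0.437 TPM, adjusted p = 0.0374) differed by 0.32 and 0.31 on the log2 scale, and by 0.07 and 0.06 after median-ratio scaling. Pla2g6 lost its call without any 1 mouse except hSKP2-KI replicate 3 and WT replicate 2, and Pla2g4a without any except hSKP2-KI replicate 1 and WT replicate 2.

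Of the other terminal synthases, 3 of 9 tested rose (1 after median-ratio scaling), a share near the 32.7% of all tested genes called higher. Akr1b8, an aldo-keto reductase of the family that holds prostaglandin F synthases, had 41.0 ± 1.73 TPM in hSKP2-KI and 14.5 ± 5.93 TPM in WT prostates (SD, n = 4 each), a log2 difference of 1.5 (standard error 0.19, limma adjusted p = 0.00101) and of 1.25 after median-ratio scaling (adjusted p = 0.00369). Ptgis, the prostacyclin synthase, had 44.4 ± 14.5 against 27.2 ± 3.48 TPM, a log2 difference of 0.65 (adjusted p = 0.0209) that was 0.39 after median-ratio scaling (adjusted p = 0.176) and 0.56 without WT replicate 1 (adjusted p = 0.0614). The cytosolic prostaglandin E synthase Ptges3 had 71.9 ± 3.0 against 59.8 ± 6.1 TPM, and its log2 difference of 0.27 (adjusted p = 0.0334) became 0.00 after median-ratio scaling and was not called without hSKP2-KI replicate 2, 3 or 4 or WT replicate 1 or 3. The inducible Ptges differed by more than the cytosolic Ptges3 on both scales. Ptges was among the genes picked by their difference in these libraries, so this contrast is a description and was not tested.

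The prostanoid receptors outside the 10 genes were scarce. Ptger1, the EP1 receptor and the single one tested, had 1.96 ± 0.517 TPM in hSKP2-KI and 1.78 ± 0.169 TPM in WT prostates (SD, n = 4 each), a log2 difference of 0.07 (limma adjusted p = 0.692). Ptgdr2, which encodes the DP2 receptor for prostaglandin D2 on type 2 immune cells, reached at most 0.121 TPM in any sample. The other receptor for this ligand, Ptgdr, was thus the more abundant in each genotype. Ptgfr had 0.438 ± 0.0397 against 0.203 ± 0.086 TPM without overlap, Tbxa2r 0.706 ± 0.13 against 0.435 ± 0.168 TPM, and the prostacyclin receptor Ptgir 0.848 ± 0.455 against 0.683 ± 0.209 TPM, all too low for the test.

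Among genes for uptake and reduction of prostaglandins, Zadh2, Ptgr1 and Ptgr2, which encode prostaglandin reductases, rose by 0.41, 0.33 and 0.25 on the log2 scale (limma adjusted p = 0.013, 0.0156 and 0.0399). After median-ratio scaling their log2 differences were 0.16, 0.07 and -0.01 and none was called, so that the sign of Ptgr2 turned. As deposited, Ptgr2 kept its call only without WT replicate 2 or 4 among the 8 fits that left out a mouse. These made up 3 of the 5 tested genes of the list, beside 32.7% of all tested genes.

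Lipoxygenase and leukotriene genes, the other branch of arachidonic acid metabolism, had 7 of 8 tested genes called higher, beside 32.7% of all tested genes, and 3 of 8 after median-ratio scaling, beside 6.92%. Alox12e, an epidermal-type 12-lipoxygenase, had 3.89 ± 2.51 TPM in hSKP2-KI and 0.727 ± 0.322 TPM in WT prostates (SD, n = 4 each), with 7.58 TPM in hSKP2-KI replicate 1. Its log2 difference was 1.40 (standard error 0.28, limma adjusted p = 0.00593). Alox12, the platelet-type 12-lipoxygenase, had 7.67 ± 1.23 against 3.14 ± 0.823 TPM (log2 difference 1.08, adjusted p = 0.00195). Ltc4s, the leukotriene C4 synthase, had 16.7 ± 7.11 against 6.96 ± 0.89 TPM (1.07, adjusted p = 0.00788). After median-ratio scaling the log2 differences were 1.24, 0.86 and 0.83 (adjusted p = 0.0252, 0.0114 and 0.0468), and under quantile normalization Alox12e and Ltc4s were not called (adjusted p = 0.0516 and 0.064). With a mouse left out after median-ratio scaling, Ltc4s kept its call only without hSKP2-KI replicate 4. Alox12e lost its call there without hSKP2-KI replicate 2 or WT replicate 1, 3 or 4. As deposited, Alox5 lost its call without hSKP2-KI replicate 2, 3 or 4 or WT replicate 1, 3 or 4. Ltb4r1 lost its call as deposited without hSKP2-KI replicate 2 or 4 or WT replicate 3 or 4, and Alox5ap without WT replicate 1. Among platelet markers Pf4 was the single one tested and was called higher. Its part in the Alox12 difference was not tested.

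**Figure D5:**
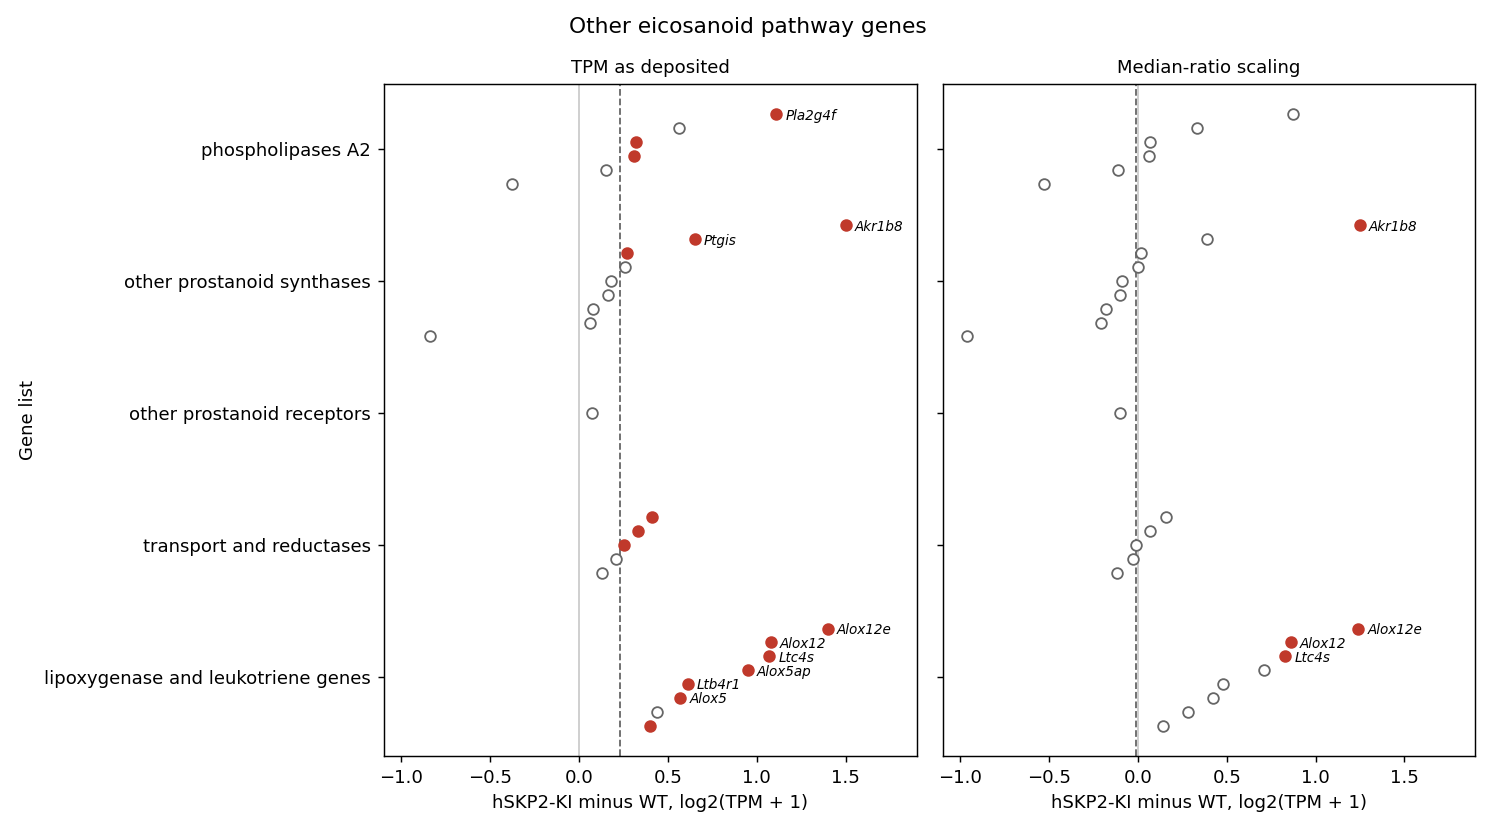
Difference between hSKP2-KI and WT on the log2(TPM + 1) scale for the 29 tested genes of 5 pathway lists, as deposited (left) and after median-ratio scaling (right). Filled points had an adjusted p under 0.05, the dashed line is the median of all tested genes, and 16 points are filled at the left against 4 at the right.

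Downstream, 3 of 12 tested cyclic AMP and CREB induced genes rose, a share below the 32.7% of all tested genes called higher (0 of 12 after median-ratio scaling, beside 6.92%). The median log2 difference of the 12 was 0.17, below the 0.23 of all tested genes. Rgs2, a regulator of G protein signalling, had 375 ± 68.2 TPM in hSKP2-KI and 197 ± 81.6 TPM in WT prostates (log2 difference 0.99, limma adjusted p = 0.0101). Dusp1, a MAP kinase phosphatase, had 20 ± 5.9 against 10.2 ± 2.37 TPM (0.89, adjusted p = 0.0099), and Sik1, a salt-inducible kinase, 14.6 ± 1.94 against 9.42 ± 1.8 TPM (0.59, adjusted p = 0.0101). After median-ratio scaling they stood at 0.72, 0.64 and 0.34 (adjusted p = 0.0626, 0.0505 and 0.0716). Of the inducers of Ptgs2 and Ptges, the cytokine genes Il1a, Il1b, Tnf and Il6 stayed below 1 TPM in every sample. In that list 1 of 3 tested genes rose, a share near that of all tested genes (0 after median-ratio scaling). This was Nfkbia, an NF-kappaB target rather than an inducer, with 43.1 ± 4.79 against 33.4 ± 3.51 TPM (0.36, limma adjusted p = 0.0233). It was 0.09 after median-ratio scaling (adjusted p = 0.537). Il1r1 was at -0.08 (adjusted p = 0.484) and at -0.34 after that scaling (adjusted p = 0.0624). Egr1 was at 0.61 (adjusted p = 0.17) and then 0.38 (adjusted p = 0.525). Without hSKP2-KI replicate 1 or 2 or WT replicate 1 or 3, Nfkbia was not called (adjusted p = 0.0546, 0.0625, 0.0594 and 0.0619).

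Around Ptgdr on chromosome 14, the lncRNA Gm34198 overlaps the gene by 2032 bases and the lncRNA Gm16976 overlaps its start by 795 bases. Gm34198 reached at most 0.0498 TPM. Gm16976 had 0.596 ± 0.318 TPM in hSKP2-KI and 0.0872 ± 0.101 TPM in WT prostates (SD, n = 4 each), and since the counting is not stated to use strand, its reads cannot be told apart from those of Ptgdr where they overlap. Beside Ptger2, the lncRNA 4930431P03Rik had 0.436 ± 0.421 against 0.066 ± 0.0346 TPM, and Mir327 was listed at 0. The protein-coding Txndc16, next beyond the pseudogene Gm21010, had 3.99 ± 0.59 against 2.04 ± 0.531 TPM (log2 difference 0.72, limma adjusted p = 0.00669, and 0.53 with adjusted p = 0.0267 after median-ratio scaling). Gm17070 and Gm18524 are the next entries on either side of the Ptgdr locus.

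The genes whose pattern over the 8 samples lay closest to that of Ptgdr, by the mean absolute difference of log2(TPM + 1) after subtraction of each WT mean, were Ugt2b34 (0.246), Gm41142 (0.251), Fcgbp (0.302), Sult5a1 (0.337) and Adh7 (0.346). Ugt2b34 encodes a glucuronosyltransferase, Sult5a1 a sulfotransferase, Adh7 an alcohol dehydrogenase and Fcgbp a mucin-like secreted protein. Closest to Ptgds, the gene with the lowest log2 difference of the 10, were Etv4 (0.181), Acsbg1 (0.194), Lypd3 (0.203), Ism2 (0.222) and Mafa (0.226). Like Ptgds, these 5 had their highest hSKP2-KI value in replicate 4, which choosing them by pattern over the same samples favours.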

How the data were processed

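Poly-A RNA of the ventral lobes was sequenced by the authors (4 hSKP2-KI and 4 WT mice, 1 library each). Reads were trimmed, quality checked and mapped in CLC software, and the submitters' processing notes name mm10 and GRCm38. Its version, the annotation and the counting options are not given in the sources used here. The authors deposited TPM, scaled to 1000000 per sample, so the reads behind each value in each sample, and the precision they give, are not known from the table, although the study's methods state a nominal sequencing depth, and 5 mitochondrial genes are listed at 0 throughout. The table held 0 columns of other samples.

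The 13080 genes that reached a TPM of 1 in 4 or more samples were fitted as log2(TPM + 1) in limma 3.58.1 (R 4.3.3), using a trended empirical Bayes step and Benjamini-Hochberg adjustment at 0.05. The added 1 understates the change of low genes. The fit was tested on simulated data. Figures used matplotlib 3.10.9 in Python 3.11.15. Windows of 300 bases and gene positions came from RefSeq tables of GRCm38.p6, exons from GENCODE M21.

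The genes and lists were chosen with earlier results of these data known. Named were the 10 genes, per list up to 3 called genes with the largest difference, other prostanoid receptors, the 5 nearest patterns to the highest and lowest gene, the neighbours of Ptgdr and Ptger2, and Skp2, Pbsn, Sbp and Spink1. Other genes named were chosen after their values were seen. The fit was repeated with each sample left out, with a replicate block, with a pseudocount of 0.1, without the filter or with one on a mean TPM of 5, and after quantile normalization, median-ratio scaling or removal of the 20 most abundant genes. The labels give no batch.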

Additional observations from a re-analysis of the deposited data

Results flagged for a closer look

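In 2 of 78 groups of 4 samples, 1 sample stood apart from the other 3 by Dixon's criterion, where chance alone gives about 1 group in 20. The gap over range was taken on the log2(TPM + 1) scale, not on TPM. On that scale Akr1b7 was not flagged, although it was 35.5 TPM in WT replicate 4 and 0.406 to 1.53 TPM in the other WT mice. Ptgs1 in WT replicate 1 was 2.73 TPM, against 4.18 to 4.29 TPM in the other WT mice (gap over range 0.94). Ptgr1 in WT replicate 4 was 59.9 TPM, against 49.1 to 50.5 TPM in the other WT mice (gap over range 0.858).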

How the results depend on the processing

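Of all tested genes, 4433 were called as deposited, 1461 after median-ratio scaling, 1317 under quantile normalization, 1321 without the 20 most abundant genes, and 2993 to 4677 with each sample left out. Calls among the 10 genes numbered 7 as deposited, 4 of 4 tested with a mean TPM of at least 5, 3 under each of the 3 rescalings and 5 to 8 with each sample left out. Without a filter 5 of 10 were called (Ptgs1, Ptges, Ptgdr, Ptger2 and Ptger4). Hpgds lost its call without hSKP2-KI replicates 2 or 3 or WT replicates 1 or 2, Ptger3 without hSKP2-KI replicate 3 or WT replicate 3, and Hpgd without WT replicates 1 or 3, while Ptgs2 gained one without hSKP2-KI replicate 1. For the other pathway genes the count was 16 as deposited, 11 without a filter, 4 after median-ratio scaling, 2 under quantile normalization, 4 without the 20 most abundant genes and 8 to 16 with each sample left out. Median-ratio scaling combined with each left-out sample, added after seeing the data, gave 1131, 944, 1291 and 840 genes without hSKP2-KI replicates 1 to 4 and 789, 1012, 974 and 933 without WT replicates 1 to 4, with 1 to 3 of the 10 genes (Ptgdr in all 8 fits) and 2 to 4 other pathway genes. The share of calls that were higher was 96.4% as deposited, 61.9% after median-ratio scaling, 53.8% under quantile normalization and 67.1% without the 20 most abundant genes.

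After median-ratio scaling the log2 difference of Ptgr2 turned to -0.01, and with 1 mouse left out it was between -0.04 and 0.00 for hSKP2-KI replicates 1, 3 and 4 (0.00, -0.01 and -0.04) and WT replicates 2 and 3 (-0.03 and -0.04). That of Ptges3 was -0.02 without hSKP2-KI replicate 4, and -0.01, 0.00 and -0.01 without WT replicates 1, 2 and 3. The cause was not tested. A replicate block gave 5128 genes, 8 of the 10 genes and 18 other pathway genes. The labels do not say whether the replicate numbers pair the mice, so the unblocked fit was kept. Deviations of same-numbered samples correlated at 0.221, -0.109, 0.167 and -0.014 across genes, and 2 of 4 correlated best with their own number. TPM does not give the reads behind a value, so counting error could not be set beside the values of low genes such as Ptgds and Ptger2.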
